A study of Mus musculus with 6 samples.

Results

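The Dlk1-Dio3 imprinted miRNA cluster was represented by 35 mature miRNAs, chosen by name as products of this locus from the 1390 miRNAs of the deposited table. All 35 were in the table and had at least 1 count. They were measured by small-RNA sequencing of thymus tissue from C57BL mice aged 5 weeks. The control group (n = 3 mice) was not irradiated. The irradiated group (n = 3 mice) was exposed to 6 Gy of X-rays, delivered at 800 cGy/min from 40 cm away, and its thymus was taken 24 h later. The labels name no transgene, deletion or cell sorting, so the libraries may hold RNA of any cell type in the tissue taken.

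The Dlk1-Dio3 region is imprinted: Dlk1, Rtl1 and Dio3 are expressed from the paternal chromosome, while the noncoding RNAs Meg3, Rian and Mirg and the miRNAs along them are expressed from the maternal chromosome. Long maternal transcripts are processed into many hairpins, each of which can release a 5p and a 3p mature miRNA. The cluster is known for expression in embryo, placenta and brain and for low levels in most adult tissues. Several of its miRNAs lie antisense to Rtl1, a retrotransposon-derived gene needed in the fetal capillaries of the placenta, and can direct cleavage of its mRNA.

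The 34 hairpins of the 35 members all lay on the plus strand of chromosome 12 (GRCm38), from 109563692 to 109743795, a span of 180.1 kb. In the same build the annotation places Dlk1 at 109452823 to 109463336, Meg3 at 109541001 to 109571726, Rian at 109603940 to 109661716, Mirg at 109729764 to 109749460 and Dio3 at 110279068 to 110281097, all on the plus strand. Rtl1 lies between Meg3 and Rian on the minus strand, at 109589193 to 109600330. The comparison within the cluster set 8 members of the Rtl1-antisense type (miR-127-3p, miR-127-5p, miR-136-5p, miR-337-5p, miR-370-3p, miR-431-5p, miR-433-3p and miR-434-3p) against the other 27. By coordinates 6 of these 8 lay over the Rtl1 coding exon, on the opposite strand. The hairpin of miR-337 (109585789 to 109585885) lay between Meg3 and Rtl1, and that of miR-370 (109618258 to 109618336) lay within Rian. Of the remaining 27, miR-770-3p lay within Meg3, 16 lay between Rian and Mirg from miR-379 onward, and 10 lay within Mirg.

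The mature sequences of the members whose library values are given below are shown first, because reads are assigned to miRNAs by these 21 to 25 bases. They are written 5′ to 3′ as deposited, with the seed (bases 2 to 8, the part that pairs with target mRNAs) in capitals. The Rtl1-antisense type comes first, in order along the chromosome.
mmu-miR-337-5p: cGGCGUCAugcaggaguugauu
mmu-miR-431-5p: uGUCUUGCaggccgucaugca
mmu-miR-127-5p: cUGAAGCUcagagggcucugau
mmu-miR-127-3p: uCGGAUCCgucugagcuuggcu
mmu-miR-434-3p: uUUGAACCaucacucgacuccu
mmu-miR-136-5p: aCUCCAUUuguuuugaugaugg
mmu-miR-370-3p: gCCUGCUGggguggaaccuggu
mmu-miR-379-5p: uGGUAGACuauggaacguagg
mmu-miR-411-5p: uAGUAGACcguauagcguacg
mmu-miR-300-3p: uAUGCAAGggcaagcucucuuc
mmu-miR-381-3p: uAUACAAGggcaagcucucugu
mmu-miR-382-5p: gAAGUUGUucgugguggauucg
mmu-miR-134-5p: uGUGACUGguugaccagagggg
mmu-miR-541-5p: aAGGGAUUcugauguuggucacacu
No seed was shared: the 35 members had 35 distinct seeds. MiR-379-5p and miR-411-5p share bases 3 to 8 (GUAGAC), as do miR-376c-3p and miR-376b-3p (CAUAGA). MiR-300-3p and miR-381-3p differ at 3 of 22 bases, the fewest of any pair of members along with miR-376b-3p and miR-376a-3p (3 of 21). The seed of miR-379-5p was also that of miR-1193-5p, and the seed of miR-381-3p that of miR-539-3p. Of the 35 deposited sequences 32 matched a RefSeq mature entry (GRCm38.p6) exactly, and all 35 deposited precursors matched a RefSeq hairpin.

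The 6 libraries held 7730641 to 9287017 counts, and 828 to 924 miRNAs were counted per library. TMM factors, which scale the libraries to one another, ranged from 0.823 in control replicate 1 to 1.39 in control replicate 2. Levels below are TMM-scaled CPM (counts relative to the scaled library total). For a miRNA with a count of 0 the upper limit is 3 counts, equal to 0.278 to 0.428 CPM, which covers counting error only. The thymocyte markers listed for this tissue were present, summing to 99420 to 166275 CPM in control libraries, and summed to 4880 to 7871 CPM in irradiated libraries.

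The cluster was low in abundance in the thymus and was higher after irradiation. Of the 35 members, 22 had enough counts to be tested, and 16 of them were higher in irradiated than in control thymus (edgeR adjusted p below 0.05). No member was lower and 6 did not pass. Over all 519 miRNAs tested, 27.7% were called higher and 33.5% were called lower. The log2 change, irradiated over control, was positive for all 22 tested members, from 0.42 to 2.41, with a median of 1.77. The median over all 519 tested miRNAs was 0.01. All irradiated libraries lay above all control libraries for 18 of the 22 members, against 32.0% of all tested miRNAs, and the groups overlapped for the other 4. In bulk tissue, fewer cells of a type and less RNA per cell cannot be told apart, and a rise in the share of one cell type cannot be told apart from a rise within its cells. Because 13 members with few counts were not tested, these counts describe the better-counted members, and a member could enter the test through the irradiated libraries alone.

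**Figure D1:**
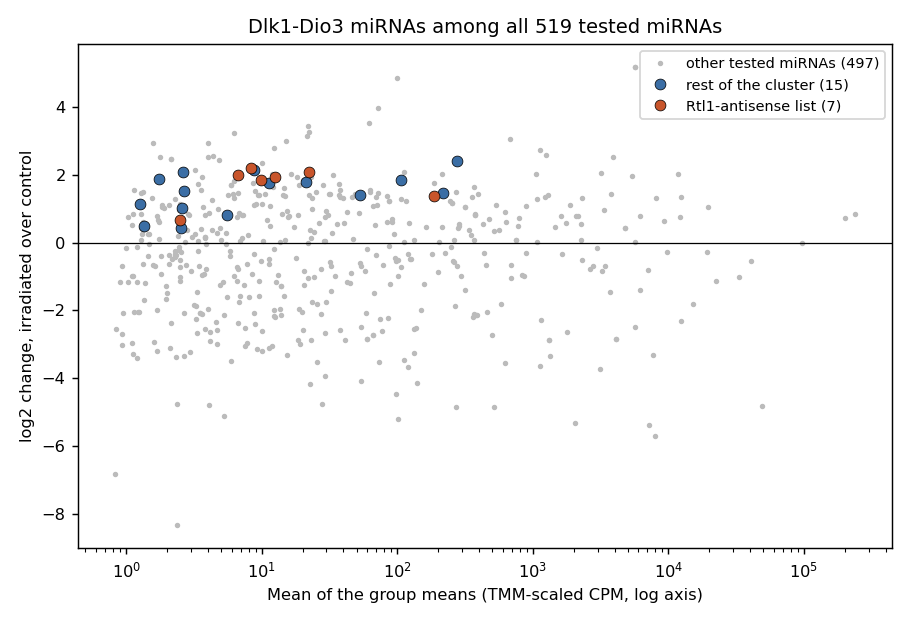
Log2 change, irradiated over control (vertical axis), against the mean of the group means in TMM-scaled CPM (log horizontal axis) for the 519 tested miRNAs. The 7 tested members of the Rtl1-antisense type (orange) and the 15 others of the cluster (blue) all lie above 0, between 0.42 and 2.41, while the other tested miRNAs (grey) lie on both sides.

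The most abundant Rtl1-antisense miRNA was mmu-miR-127-3p. In the order of replicates 1, 2 and 3 it was at 99.9, 96.4 and 117 CPM in control and 189, 416 and 205 CPM in irradiated libraries. Its control libraries were close together, and irradiated replicate 2 stood far above the other irradiated libraries, with no overlap between the groups. MiR-127-3p rose by 1.37 ± 0.34 (SE, log2 scale, edgeR adjusted p of 0.00648).

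MiR-127-5p, which comes from the opposite arm of the mir-127 hairpin (109592846 to 109592915), was far less abundant, at 3.99, 5.85 and 5.64 CPM in control and 15.8, 29.6 and 14.4 CPM in irradiated libraries. It rose by 1.94 ± 0.38 (SE, log2 scale, edgeR adjusted p of 0.00177). The hairpin is shown with both mature strands in capitals, because the 2 members come from it.
mmu-mir-127: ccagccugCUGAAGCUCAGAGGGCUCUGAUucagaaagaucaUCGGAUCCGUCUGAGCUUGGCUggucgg
Both strands were higher in every irradiated library than in any control library.

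MiR-434-3p, from a hairpin at 109594506 to 109594599, was at 8.42, 7.70 and 9.45 CPM in control and 21.8, 60.4 and 26.5 CPM in irradiated libraries. The control values lay within a narrow range, and irradiated replicate 2 was again the highest. MiR-434-3p rose by 2.09 ± 0.41 (SE, log2 scale, edgeR adjusted p of 0.00179).

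MiR-337-5p, the most upstream tested member, was at 2.43, 2.04 and 3.56 CPM in control and 8.48, 16.8 and 6.58 CPM in irradiated libraries. It rose by 1.99 ± 0.44 (SE, log2 scale, edgeR adjusted p of 0.00378). Irradiated replicates 1 and 3 were closer to each other and replicate 2 was the highest, with no overlap with control.

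MiR-136-5p, whose hairpin (109595327 to 109595388) lies near the start of the Rtl1 coding sequence, was at 1.14, 4.08 and 3.56 CPM in control and 5.87, 25.3 and 10.3 CPM in irradiated libraries. Control replicate 1 was low, with 8 counts, and the irradiated libraries were spread widely. MiR-136-5p rose by 2.21 ± 0.60 (SE, log2 scale, edgeR adjusted p of 0.00992). Its level is uncertain because a hairpin on the opposite strand shares its sequence, as described with the other strands of the locus.

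MiR-370-3p, the only tested member within Rian, was at 3.42, 3.06 and 6.26 CPM in control and 6.78, 22.1 and 17.3 CPM in irradiated libraries. Irradiated replicate 1 lay just above the highest control library. MiR-370-3p rose by 1.86 ± 0.48 (SE, log2 scale, edgeR adjusted p of 0.00797), and without control replicate 2 its edgeR adjusted p was 0.0505. With irradiated replicate 1 as the only irradiated library the change was 0.89 (edgeR adjusted p of 0.0662).

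MiR-431-5p, which is known to act on Smad4 in muscle progenitors, did not pass. It was at 1.85, 1.86 and 1.96 CPM in control and 4.44, 2.63 and 2.12 CPM in irradiated libraries. The control libraries were nearly equal and all irradiated libraries lay above them, replicates 2 and 3 by little. The change was 0.68 ± 0.39 (SE, log2 scale, edgeR adjusted p of 0.152), with a 95% interval of −0.20 to 1.56. It passed with upper-quartile factors (1.13, edgeR adjusted p of 0.0318) and with irradiated replicate 1 as the only irradiated library (1.42, edgeR adjusted p of 0.0118), and its edgeR adjusted p reached 0.557 under the alternative least favourable to it. The remaining member of this type, miR-433-3p, had 0, 3 and 8 counts in control and 4, 24 and 17 counts in irradiated libraries and was not tested.

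Downstream of Rian begins the long array from miR-379 to miR-410, known for its expression in neurons and for its part in the metabolic adaptation of the newborn. Its first member, mmu-miR-379-5p, was the most abundant of the cluster after irradiation. MiR-379-5p was at 56.9, 92.1 and 113 CPM in control and 329.8, 599 and 464 CPM in irradiated libraries. All irradiated libraries lay well above all control libraries. It rose by 2.41 ± 0.35 (SE, log2 scale, edgeR adjusted p of 2.7e-04), the largest change among the tested members, from a hairpin at 109709060 to 109709125.

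The next hairpin, 109710175 to 109710256, gave miR-411-5p, the most abundant member in control thymus along with miR-127-3p. It was at 65.6, 126 and 152 CPM in control and 219.7, 466 and 267 CPM in irradiated libraries. The groups did not overlap, but the lowest irradiated library was closer to control than for miR-379-5p. MiR-411-5p rose by 1.47 ± 0.39 (SE, log2 scale, edgeR adjusted p of 0.00905).

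The counts of these neighbours shifted against each other. The ratio of miR-379-5p to miR-411-5p counts, which does not depend on library scaling, was 0.867, 0.730 and 0.742 in control and 1.50, 1.29 and 1.74 in irradiated libraries. Every irradiated ratio lay above every control ratio. This pair was chosen after its values were seen, so its difference is given without a test.

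Further along the array, mmu-miR-381-3p and the closely similar miR-300-3p moved in parallel. MiR-381-3p, known from work on dendrites of neurons, was at 27.4, 50.3 and 60.6 CPM in control and 109, 269 and 123 CPM in irradiated libraries. It rose by 1.86 ± 0.43 (SE, log2 scale, edgeR adjusted p of 0.00431). MiR-300-3p was at 5.85, 9.37 and 13.3 CPM in control and 20.7, 47.9 and 29.7 CPM in irradiated libraries and rose by 1.78 ± 0.41 (SE, log2 scale, edgeR adjusted p of 0.00418). The ratio of miR-300-3p to miR-381-3p counts averaged 0.206 ± 0.0174 in control against 0.203 ± 0.0342 in irradiated libraries (SD, n = 3 each), a difference smaller than the spread between libraries. With 3 mismatches in 22 bases the counts of the pair may depend on how strictly reads were matched, which is not given in the sources used here.

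Within Mirg, miR-382-5p was at 1.71, 3.53 and 4.29 CPM in control and 12.3, 16.2 and 14.5 CPM in irradiated libraries. The irradiated libraries were close to one another and all were above control, by 2.16 ± 0.39 (SE, log2 scale, edgeR adjusted p of 0.00116). MiR-134-5p, a regulator of dendritic spine size through Limk1, was at 2.43, 5.48 and 7.61 CPM in control and 11.5, 20.2 and 21.0 CPM in irradiated libraries and rose by 1.76 ± 0.44 (SE, log2 scale, edgeR adjusted p of 0.00679). For both of these miRNAs control replicate 1 was the lowest library.

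MiR-541-5p, also within Mirg, was at 15.8, 36.6 and 35.2 CPM in control and 57.8, 92.5 and 82.4 CPM in irradiated libraries. It rose by 1.41 ± 0.36 (SE, log2 scale, edgeR adjusted p of 0.00766). Control replicate 1 was the lowest of its libraries, and the irradiated libraries did not overlap with control.

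The last 3 members that passed were near the lower limit of the test. Each had at least 1 control library under 10 counts and every irradiated library above 10. Each therefore met the count filter only with the irradiated libraries, which favours the higher direction. The same held for miR-136-5p, with 8 counts in control replicate 1. MiR-495-3p had 1, 16 and 10 counts in control and 40, 48 and 18 counts in irradiated libraries and rose by 2.08 ± 0.63 (SE, log2 scale, edgeR adjusted p of 0.0162). MiR-376c-3p, of a family known for A-to-I editing, had 9, 9 and 16 counts in control and 34, 45 and 19 counts in irradiated libraries and rose by 1.54 ± 0.49 (SE, log2 scale, edgeR adjusted p of 0.0201). MiR-369-3p had 1, 13 and 6 counts in control and 21, 36 and 12 counts in irradiated libraries and rose by 1.88 ± 0.64 (SE, log2 scale, edgeR adjusted p of 0.0264). In each of them the lowest irradiated library was only slightly above the highest control library. MiR-376c-3p did not pass without control replicate 2 (edgeR adjusted p of 0.103). MiR-369-3p did not pass without control replicate 1 (edgeR adjusted p of 0.0677), control replicate 3 (0.0560) or irradiated replicate 2 (0.0514).

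**Figure D2:**
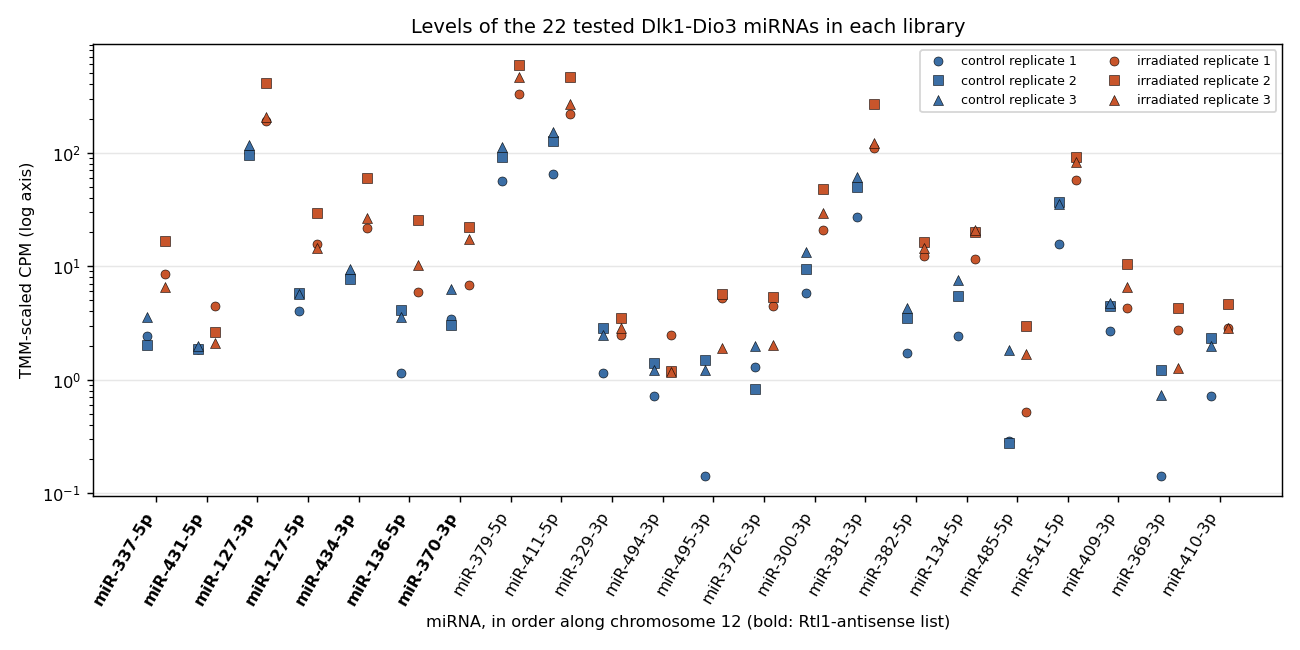
TMM-scaled CPM (log axis) of each of the 22 tested members in each of the 6 libraries, in order along chromosome 12, with control in blue, irradiated in orange and the replicate given by the symbol. Irradiated replicate 2 (orange squares) is the highest irradiated library for 19 of the 22 members, and control replicate 1 (blue circles) is the lowest control library for 16.

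Besides miR-431-5p, 5 tested members did not pass, all of them in the array from miR-379 to miR-410. MiR-410-3p, the last hairpin of the array, changed by 1.02 ± 0.46 (SE, log2 scale, edgeR adjusted p of 0.0765), with a 95% interval of −0.01 to 2.04 and no overlap between the groups. It passed with median-of-ratios factors (edgeR adjusted p of 0.0466) and with upper-quartile factors (0.0123), within 0.0123 to 0.240 over its alternatives. MiR-409-3p changed by 0.82 ± 0.41 (SE, log2 scale, edgeR adjusted p of 0.103), and passed with upper-quartile factors (edgeR adjusted p of 0.0130) and without irradiated replicate 1 (0.0240), within 0.0130 to 0.595. MiR-485-5p had 2, 3 and 15 counts in control and 4, 25 and 16 counts in irradiated libraries. Its change was 1.13 ± 0.79 (SE, log2 scale, edgeR adjusted p of 0.227), and it passed without control replicate 3 (edgeR adjusted p of 0.0301) and without irradiated replicate 1 (0.0411), within 0.0301 to 0.756. MiR-329-3p changed by 0.42 ± 0.41 (SE, log2 scale, edgeR adjusted p of 0.387) and miR-494-3p by 0.49 ± 0.48 (SE, log2 scale, edgeR adjusted p of 0.390). The control and irradiated values overlapped for all of these except miR-410-3p.

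The remaining 13 members had too few counts for the test. Besides miR-433-3p these were miR-770-3p, miR-299a-5p, miR-323-3p, miR-543-3p, miR-654-3p, miR-376b-3p, miR-376a-3p, miR-487b-3p, miR-539-5p, miR-668-3p, miR-154-5p and miR-377-3p. The best counted of them were miR-376b-3p, with 9, 11 and 7 counts in control and 5, 18 and 10 counts in irradiated libraries, and miR-154-5p, with 6, 7 and 12 and then 7, 25 and 2 counts. The least counted was miR-654-3p, with 1, 1 and 0 counts in control and 1, 0 and 0 in irradiated libraries, alongside miR-376a-3p with 1, 0 and 0 and then 1, 1 and 0. The position along the array did not separate tested from untested members, since untested hairpins lay between tested ones.

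The Rtl1-antisense miRNAs and the rest of the cluster changed in the same direction. Among the Rtl1-antisense members 7 were tested, and 6 of them were higher and none lower, with a median log2 change of 1.94 and a range of 0.68 to 2.21. Among the others 15 were tested, and 10 of them were higher and none lower, with a median of 1.54 and a range of 0.42 to 2.41. The share called higher over all tested miRNAs was 27.7%. All irradiated libraries lay above all control libraries for 7 of 7 Rtl1-antisense members and for 11 of 15 others, against 32.0% of all tested miRNAs. When only the members over the Rtl1 coding exon were counted, 4 of 5 tested were higher and the median was again 1.94. Of the members between Rian and Mirg 6 of 8 tested were higher (median 1.66), and of those within Mirg 4 of 7 (median 1.41).

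Within each library, the mean log2 CPM of the Rtl1-antisense members minus that of the other members was 0.75, 0.05 and 0.10 in control and 0.30, 0.65 and 0.39 in irradiated libraries. Control replicate 1 had the largest value of all 6 libraries and the other controls the smallest, so the groups overlapped. The difference between the group means, 0.15, was smaller than the spread between control libraries (SD 0.39, n = 3). It was 0.05 without irradiated replicate 2. Without control replicate 1, every irradiated value lay above every remaining control value, so the overlap rested on that library. No test was run, and a difference in change between the subgroups was not established in these 6 libraries.

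**Figure D3:**
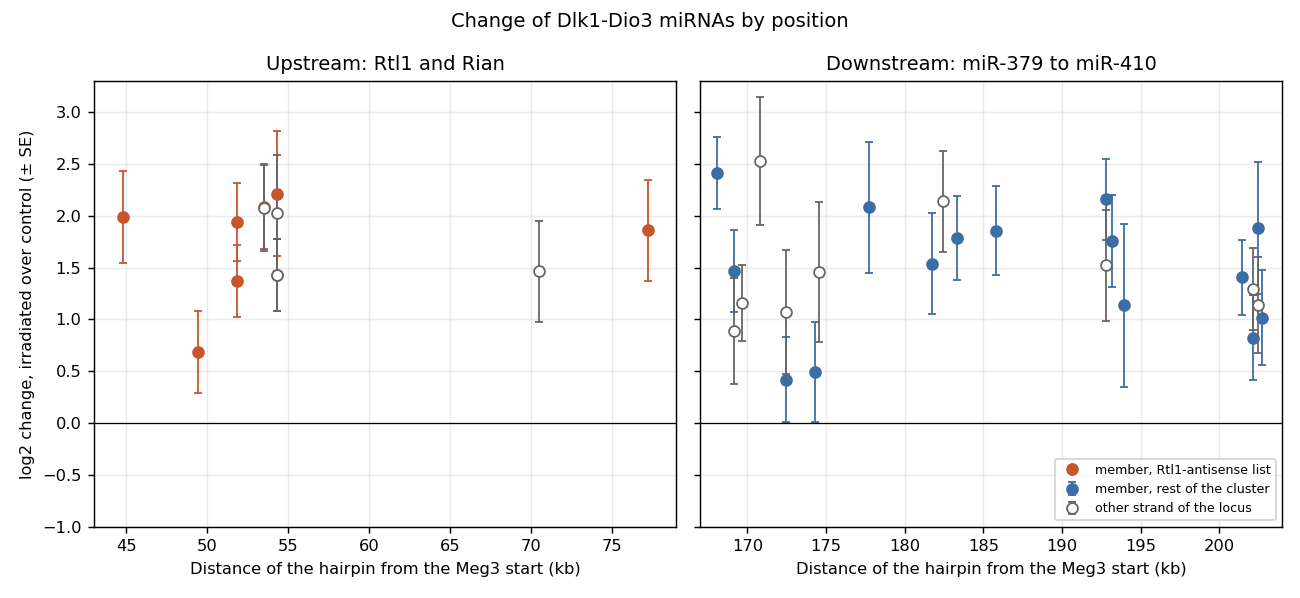
Log2 change, irradiated over control, with its SE (vertical bars) against the distance of the hairpin from the Meg3 start in kb, in 2 windows that hold every tested miRNA of the locus. Members of the Rtl1-antisense type are orange, other members blue and the other strands of the locus open grey, and all lie above 0, with no member below 0.42.

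As a share of all library counts the 35 members together held 0.0254%, 0.0646% and 0.0549% in control and 0.0925%, 0.210% and 0.133% in irradiated libraries. Every irradiated share was above every control share, with a control mean of 0.0483% ± 0.0204 and an irradiated mean of 0.145% ± 0.0597 (SD, n = 3 each, not tested because the members were chosen with results known). The summed counts behind these shares were 2161 to 4994 in control and 8012 to 17917 in irradiated libraries. MiR-379-5p, miR-411-5p, miR-127-3p, miR-381-3p and miR-541-5p supplied 86.0% to 87.0% of the members' counts in every library.

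Within that sum the balance differed. MiR-379-5p made up 18.5%, 19.9% and 20.3% of the members' counts in control and 31.6%, 28.0% and 35.4% in irradiated libraries, with no overlap. MiR-127-3p made up 32.4%, 20.8% and 21.0% in control and 18.1%, 19.4% and 15.6% in irradiated libraries. The Rtl1-antisense members together made up 39.3%, 26.2% and 26.7% in control and 24.2%, 26.9% and 21.6% in irradiated libraries, and these overlapped.

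**Figure D4:**
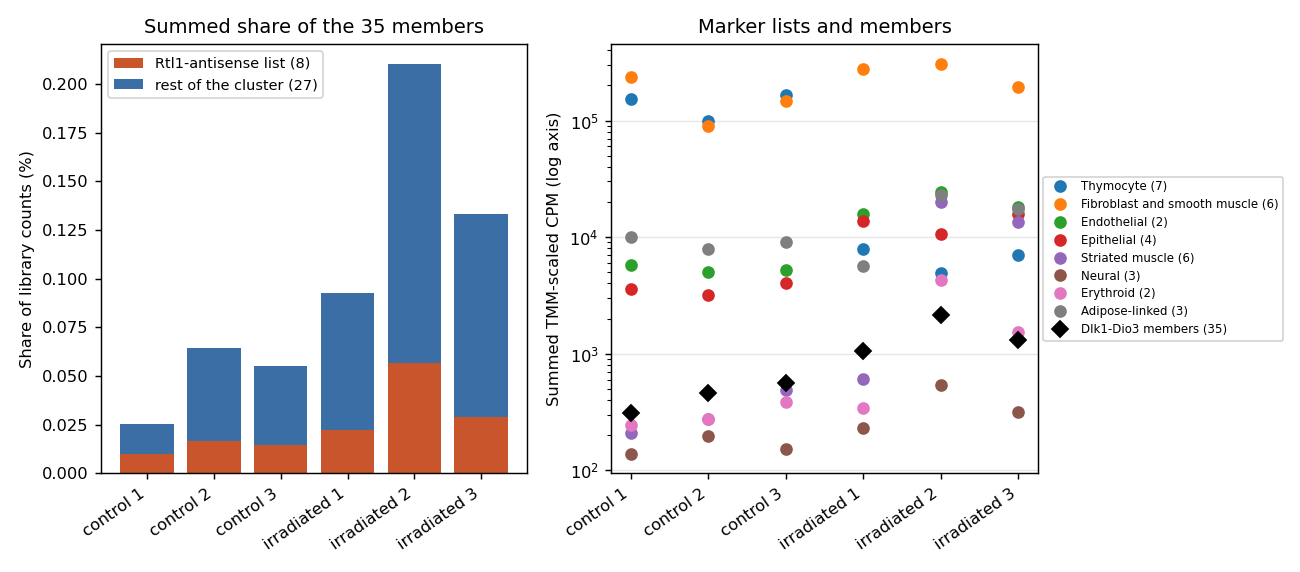
Left, share of library counts (%) held by the 35 members in each library, split into the Rtl1-antisense type (orange) and the rest (blue). Right, summed TMM-scaled CPM (log axis) of each marker list and of the members in each library, with the number of miRNAs of each list in brackets. The members (black diamonds) and every marker list except the thymocyte and epithelial ones are highest in irradiated replicate 2, while the thymocyte markers are lower in all irradiated libraries.

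The irradiated libraries were unequal. Irradiated replicate 2 was the highest irradiated library for 19 of the 22 tested members (86.4%), against 41.8% of all tested miRNAs, and the median member was 1.87 times as high there as in the mean of replicates 1 and 3. Control replicate 1 was the lowest control library for 16 of the 22 members (72.7%), against 43.9% of all tested miRNAs. Irradiated replicate 2 was also highest for the listed markers of striated muscle, whose 6 miRNAs summed to 207 to 486 CPM in control and to 608, 20146 and 13410 CPM in irradiated replicates 1, 2 and 3. The erythroid markers (2 miRNAs) summed to 242 to 386 CPM in control and 344, 4312 and 1526 CPM in irradiated libraries. The adipose-linked markers (3) summed to 7964 to 10074 CPM in control and 5663, 22938 and 17309 CPM in irradiated libraries, and the neural markers (3) to 138 to 196 CPM and then 231, 539 and 318 CPM. Each neural sum was mostly miR-9-5p, at 134 to 190 CPM in control and 222 to 526 CPM in irradiated libraries. MiR-138-5p was low and passed narrowly (edgeR adjusted p of 0.0475). MiR-124-3p was not tested, with 2, 5 and 3 counts in control and 12, 16 and 8 counts in irradiated libraries. Of the tested markers, 3 of 4 for striated muscle, 2 of 2 erythroid, 1 of 3 adipose-linked and 2 of 2 neural ones were higher (edgeR). No listed marker was at 0 in every library.

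The listed markers of the thymic framework differed among themselves. The fibroblast and smooth-muscle markers (6) summed to 90121 to 238012 CPM in control and 276939, 308332 and 193365 CPM in irradiated libraries, and 3 of 6 passed as higher. The control and irradiated sums of that list overlapped, but each sum was mostly 1 miRNA. This was miR-143-3p, at 84152 to 232297 CPM in control and 184424 to 295686 CPM in irradiated libraries. The 3 that passed had no overlap: miR-199a-3p (edgeR log2 change of 3.07), miR-214-3p (1.55) and miR-199a-5p (1.43). The groups overlapped for the other 3 of the list, with edgeR log2 changes from 0.03 to 0.73. The endothelial markers (2) summed to 5059 to 5756 CPM in control and 15678, 24542 and 18194 CPM in irradiated libraries, and 1 of 2 passed as higher. Both are strands of miR-126a, and each sum was mostly miR-126a-3p, the strand that passed. For miR-126a-5p the groups overlapped, at 718 to 734 CPM in control and 629 to 867 CPM in irradiated libraries. Its log2 change was 0.09 (edgeR adjusted p of 0.768). The epithelial markers (4) summed to 3167 to 4007 CPM in control and 13813, 10721 and 15832 CPM in irradiated libraries, and 4 of 4 passed as higher. Among the irradiated libraries the fibroblast and smooth-muscle sum and the endothelial sum were highest in replicate 2, as were most members. The epithelial sum was lowest there. Of the thymocyte markers 6 of 7 were lower. The part of these cell types in the change of the members was not tested.

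Leaving out irradiated replicate 2 gave 15 of 22 tested members higher, against 28.5% of all miRNAs tested in that fit. The members' median log2 change was then 1.57, and 15 of the 16 calls were kept. In irradiated replicate 1 the erythroid marker sum (344 CPM) lay within the control range and the adipose-linked sum (5663 CPM) below it. Its striated-muscle (608 CPM), neural (231 CPM), endothelial (15678 CPM), epithelial (13813 CPM) and fibroblast and smooth-muscle (276939 CPM) sums were above every control library. The adipose-linked sum there was mostly miR-378a-3p (5653 CPM). Of the others in that list, miR-193b-3p lay above every control library and miR-365-3p below. Most of the fibroblast and smooth-muscle sum was miR-143-3p (273495 CPM). In that list miR-214-3p and both strands of miR-199a were also above every control library. By contrast miR-140-3p (1705 CPM) and miR-145a-5p (474 CPM) were below every control library. The part of the listed markers in the member levels of irradiated replicate 1 was not tested. In that library 19 of the 22 members lay above all control libraries, against 40.7% of all tested miRNAs. With it as the only irradiated library, 24 members were tested and 16 were higher, against 26.2% of all miRNAs tested in that fit, with a median of 1.32, and 15 of the 16 calls were kept. That fit was chosen after seeing the data, and it assumes that the lone irradiated library varies like the controls.

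The locus also gave other strands and hairpins. Of 58 further mature miRNAs of the locus in the table, 54 had a count and 14 were tested. Among these 10 were higher, none was lower and 4 missed the threshold, with a median log2 change of 1.44, against 27.7% called higher over all miRNAs. A strand could enter the test through the irradiated libraries alone, which favours the higher direction. MiR-380-5p did so, with 0, 9 and 5 counts in control and 24, 27 and 27 counts in irradiated libraries. So did miR-376b-5p, also called higher, with 8, 15 and 8 counts and then 22, 74 and 38 counts. The most abundant of the 14 was mmu-miR-434-5p, the other strand of miR-434, at 27.0, 44.7 and 56.6 CPM in control and 120.4, 286 and 134 CPM in irradiated libraries. It rose by 2.07 ± 0.42 (SE, log2 scale, edgeR adjusted p of 0.00202), close to the 2.09 of miR-434-3p from the same hairpin, and its groups did not overlap. MiR-299a-3p rose by 1.15 ± 0.37 (SE, log2 scale, edgeR adjusted p of 0.0201), but did not pass without control replicate 1 (edgeR adjusted p of 0.0629) or 2 (0.0547), or with library totals (0.109). MiR-382-3p rose by 1.52 ± 0.54 (SE, log2 scale, edgeR adjusted p of 0.0305) although its groups overlapped, and it did not pass without control replicate 1 (edgeR adjusted p of 0.0684) or 2 (0.141).

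MiR-136 could not be read alone. Mir3071 lies over the same position on the minus strand, so that its mature miRNAs are near reverse complements of those of miR-136. The sequences are shown for this reason, with seeds in capitals.
mmu-miR-136-3p: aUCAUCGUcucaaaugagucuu
mmu-miR-3071-5p: aCUCAUUUgagacgaugaugga
mmu-miR-3071-3p: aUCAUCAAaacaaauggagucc
MiR-136-3p and miR-3071-5p share 19 bases as reverse complements, and their counts differed by at most 7 in any library, with totals of 1624 and 1606. MiR-136-5p and miR-3071-3p share 20 bases, with totals of 435 and 617. MiR-136-3p rose by 1.43 ± 0.35 (SE, log2 scale, edgeR adjusted p of 0.00566), miR-3071-5p by 1.43 ± 0.35 (SE, log2 scale, edgeR adjusted p of 0.00566) and miR-3071-3p by 2.03 ± 0.56 (SE, log2 scale, edgeR adjusted p of 0.0107). Whether the counting used the strand of the reads is not given in the sources used here, so reads of the opposite hairpins cannot be told apart. MiR-136-3p, miR-3071-5p and miR-3071-3p are all among the 10 other strands called higher, so that count may include the same reads more than once.

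The balance of the 2 strands of a hairpin was compared for the 3 precursors with both strands at a mean of at least 10 CPM. For mir-127 the log2 ratio of 5p to 3p counts averaged −4.34 ± 0.29 in control against −3.74 ± 0.14 in irradiated libraries (SD, n = 3 each), a shift of 0.60 toward the 5p strand with no overlap (exact two-sided permutation p of 0.1, adjusted 0.3). The smallest p that 3 against 3 libraries allow is 0.1, so no pair could pass. For mir-434 the ratio was 2.26 ± 0.51 in control and 2.35 ± 0.11 in irradiated libraries, a difference smaller than the spread (SD, n = 3, exact permutation p of 1). For mir-3071 it was 1.98 ± 0.56 and 1.41 ± 0.77 (SD, n = 3, exact permutation p of 0.3), with overlap. The mature strands of mir-379, whose 3p strand was rare, are marked in capitals for comparison.
mmu-mir-379: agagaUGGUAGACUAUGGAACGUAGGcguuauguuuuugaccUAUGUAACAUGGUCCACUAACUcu
Including every precursor with both strands at 1 CPM or more gave 12 pairs, of which 4 did not overlap (mir-127, mir-376b, mir-379 and mir-411). The share over all precursors was not counted, so no conclusion is drawn from 4 of 12. Some strands had few counts, such as miR-379-3p, with 5, 6 and 8 in control and 3, 32 and 21 in irradiated libraries. The 12 also held both mir-136 and mir-3071, whose reads cannot be told apart.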

How the data were processed

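Small-RNA libraries of 6 thymuses (3 control and 3 irradiated mice) were analysed from the table of whole-number read counts per mature miRNA that the authors deposited, per the file headers. The labels name TRIzol extraction and NEBNext kits and call the molecule polyA RNA. DESeq2 1.10.1 is listed in the submitters' processing notes. The aligner, the counter and the build were not given in the sources used here. Count columns for 6 libraries absent from the labels were left out.

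Counts were tested on the whole table with edgeR 4.0.16 in R 4.3.3 (TMM factors, filterByExpr with its minimum count of 10, quasi-likelihood fit with the robust option, irradiated against control). Every adjusted p in the text without another name is the edgeR Benjamini-Hochberg value, with a threshold of 0.05 and no fold minimum. It covers the 519 miRNAs tested in the main fit or, for an alternative, all miRNAs tested in that fit. The labels give n = 3 mice per group as replicates. Log2 means used a prior count of 2, and strand ratios had 0.5 added to each count. Library totals were 7730641 to 9287017 counts. Positions came from GENCODE M21 and RefSeq (GRCm38) and were looked up by precursor name. The deposited precursor sequences were then compared with the RefSeq hairpins, and those of all 35 members matched exactly. The hairpins of mir-666 and mir-544, placed by GENCODE, were not compared by sequence. The edgeR step was tested on simulated data with known changes. The simulated rises and falls were drawn at random, with the same spread for every miRNA and library. It therefore did not cover the fall of the thymocyte markers or the unequal irradiated libraries of these data.

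The members, the Rtl1-antisense subgroup and the marker lists were chosen with earlier results of these data known. Every tested member is named. Library values are given for those with a mean of at least 10 CPM in either group and for all tested members of the Rtl1-antisense type, and the most abundant 6 of the other strands of the locus are named. Counts of a few further members and the ratios between members were added after their values were seen. The alternatives were scaling by upper quartile, by library totals or by median of ratios, testing without a filter or only from 10 CPM upward, other tools (limma-voom 3.58.1, DESeq2 1.42.0), a threshold of 0.01, a block for the replicate number, and the omission of each library in turn. Irradiated replicate 1 as the only irradiated library was added after seeing the data.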

Additional observations from a re-analysis of the deposited data

How the results depend on the processing

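The number of members called higher was 16 of 22 in the main test. Of the same 22 it was 19 with upper-quartile factors, 16 with library totals, 17 with median-of-ratios factors and 16 with limma-voom. The share called higher over all tested miRNAs was 39.7%, 20.4%, 31.8% and 26.4% in these fits, against 27.7% in the main test. DESeq2, run on all 35, called 17, against 12.9% of all miRNAs in that fit. When each library was left out in turn it was 14 to 20, of 22 to 26 tested, against 20.2% to 32.7% of all miRNAs tested. No setting called a member lower. Restricted to a mean of at least 10 CPM, 9 of 9 members were higher, against 28.1% of all miRNAs tested in that fit. In either direction 210 of 310 miRNAs were called, since fewer miRNAs were tested. Of those 9, miR-127-5p, miR-134-5p, miR-434-3p and miR-300-3p had control means under 10 CPM and reached the minimum only through the irradiated libraries, so this count favours the higher direction. Scaling moved the median over all tested miRNAs from −0.13 (library totals) to 0.44 (upper-quartile factors), and the share of higher among all calls from 38.4% to 59.7%, against 45.3% with TMM. The members' median minus that of all miRNAs stayed between 1.73 and 1.76 over these 4 scalings. The changes of these 22 members, where tested, were positive under every alternative that used at least 2 irradiated libraries. With irradiated replicate 1 alone, 21 of the 22 were positive and miR-485-5p was at −0.36. MiR-411-3p, which is not a member but another strand of the locus, was at −0.11 there. Neither miR-485-5p nor miR-411-3p passed in the main test. The cause was not tested.

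The difference between the Rtl1-antisense members and the rest (0.15) was 0.53 with all members that had a count, and −0.11 with members of at least 10 CPM. It was 0.02 to 0.37 when each library was left out. The difference in the summed share (0.0969 percentage points) was 0.234 without the 2 most abundant miRNAs in the denominator, since the total is then smaller, and 0.0645 to 0.123 when each library was left out. Strand pairs that did not overlap numbered 1 of 3, and 4 of 12 at a minimum of 1 CPM, and 1 to 2 when each library was left out. Their share over all precursors was not counted. With the replicate number as a block 14 of 22 members were called higher, against 24.5% of all tested miRNAs. In either direction 298 miRNAs were called with that block. MiR-495-3p (edgeR adjusted p of 0.0501) and miR-376c-3p (edgeR adjusted p of 0.0695) did not pass with that block. Same-numbered libraries did not all deviate together (correlations 0.10, −0.02 and 0.23), so the numbers were not taken as pairs. With fewer than about 10 counts in most libraries, 13 members could not be tested at this depth.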

Other observations

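The 2 strands of mir-376b differed in their counts. MiR-376b-5p was at 1.14, 1.39 and 0.982 CPM in control and 2.87, 8.83 and 4.03 CPM in irradiated libraries, and rose by 2.14 ± 0.49 (SE, log2 scale, edgeR adjusted p of 0.00421). It had 8, 15 and 8 counts in control and 22, 74 and 38 counts in irradiated libraries. It therefore met the count filter only with the irradiated libraries, which favours the higher direction. MiR-376b-3p had 9, 11 and 7 counts in control and 5, 18 and 10 counts in irradiated libraries and was too low for the test. The log2 ratio of 5p to 3p counts averaged 0.15 ± 0.30 in control against 1.97 ± 0.09 in irradiated libraries (SD, n = 3 each, exact two-sided permutation p of 0.1, the smallest possible, adjusted 0.3 over 12 pairs). The 3p strand differs from miR-376a-3p at 3 of 21 bases, and the assignment of such reads was not examined. This pair was singled out after its values were seen.

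MiR-434-3p also shifted against its neighbour miR-127-3p. The ratio of their counts was 0.0843, 0.0799 and 0.0810 in control and 0.115, 0.145 and 0.130 in irradiated libraries, with every irradiated ratio above every control ratio. The pair was chosen after its values were seen and was not tested.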
